A study of Homo sapiens with 6 samples.

Results

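Transcripts of 10 genes of the integrated stress response were followed in H9 cells upon inhibition of CDK9, the kinase that releases paused RNA polymerase II (RNAP2) into elongation. They encode the transcription factors DDIT3 (CHOP), ATF4, ATF3, CEBPB and CEBPG, the phosphatase subunit PPP1R15A (GADD34), the pseudokinase TRIB3, the glutathione-degrading enzyme CHAC1, and SESN2 and DDIT4, which restrain mTORC1. These 10 genes, of 61541 genes in the count table, were found by gene name, and all 10 were among the 17678 genes with enough counts to be tested. They were chosen by their known place in the pathway with the AZD4573 against DMSO differences of these same libraries already known. The differences between the groups are therefore given for these 10 genes as a description, with no p-value, and a count of those past the rule used for all genes is read as no evidence.

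H9 is a cutaneous T-cell lymphoma (CTCL) line, labelled as wild type, and a clonal derivative of the HUT 78 line, so that all 6 libraries come from 1 clone. Bulk RNA-seq covered 3 libraries of cells given DMSO (vehicle) and 3 of cells given AZD4573, a selective CDK9 inhibitor, for 4 h by the sample labels, which give no time for DMSO. Nothing in the labels says that replicates were separate cultures, so the p-values measure only the spread between these samples, which may be technical. Total counts ranged from 70367303 to 76571157 with DMSO and from 52101868 to 63795185 with AZD4573.

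Levels are given as CPM, the count of a gene per 1000000 counts of its library, where the library total is first multiplied by edgeR's TMM factor. That factor assumes that most genes do not change. The 13 mRNAs transcribed from mitochondrial DNA, without RNAP2, took 3.04% to 3.22% of counts with DMSO and 4.67% to 4.98% with AZD4573. Scaling to these mRNAs assumes in turn that their own amount did not change, which was not tested. Used in place of TMM, it shifted the median over all tested genes from a log2 fold change of 0.03 to -0.71. Differences are therefore read against that median. Values are by TMM unless the mitochondrial scaling is named. In bulk RNA, fewer cells and less RNA per cell cannot be told apart. Of 14 T-cell markers, 12 were at 1 CPM or more in both groups, whereas CD2 and CD7 were below it. Of 15 markers of other cells, 3 (EPCAM, CD79A and COL1A1) reached 1 CPM in both groups, and CD8B and HBB had no count. The summed level of the T-cell markers was 1920 to 1964 CPM with DMSO and 2904 to 3092 CPM with AZD4573. That of the other markers was 211 to 234 CPM and 230 to 240 CPM. The part of these shifts in the results was not tested.

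In the integrated stress response, the kinases EIF2AK1 (HRI), EIF2AK2 (PKR), EIF2AK3 (PERK) and EIF2AK4 (GCN2) phosphorylate the translation factor eIF2α and thereby slow protein synthesis. ATF4 is made under these conditions because upstream reading frames in its mRNA favour translation of its coding region when eIF2α is phosphorylated, so the ATF4 mRNA level does not report ATF4 protein. ATF4 and the C/EBP family factors bind DNA as dimers and drive genes of amino acid supply, of the tRNA synthetases and, through DDIT3, of cell death, while PPP1R15A brings a phosphatase to eIF2α and closes the loop.

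DDIT3 (ENSG00000175197) lies on chromosome 12 of GRCh38 from 57516588 to 57521737, on the minus strand. In GENCODE release 44 its 6 transcripts cover 1307 exon bases in 4 blocks, of which 518 bases (39.6%) also belong to exons of other genes. MARS1, the cytoplasmic methionyl-tRNA synthetase gene, shares 355 of these bases from the opposite strand, at the 3′ part of DDIT3. MBD6, which also lies on the opposite strand, shares 58 bases at the 5′ end of the annotated DDIT3 gene. ENSG00000285133, annotated as protein-coding on the same strand, lies with all of its 105 exon bases inside DDIT3 exons and had no count in any library. The microRNA gene MIR616, in an intron of DDIT3, also had no count. The authors' counting with RSEM at its default setting ignores strand, so reads from the shared bases of DDIT3 and of its antisense neighbours are assigned by estimate.

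**Figure D1:**
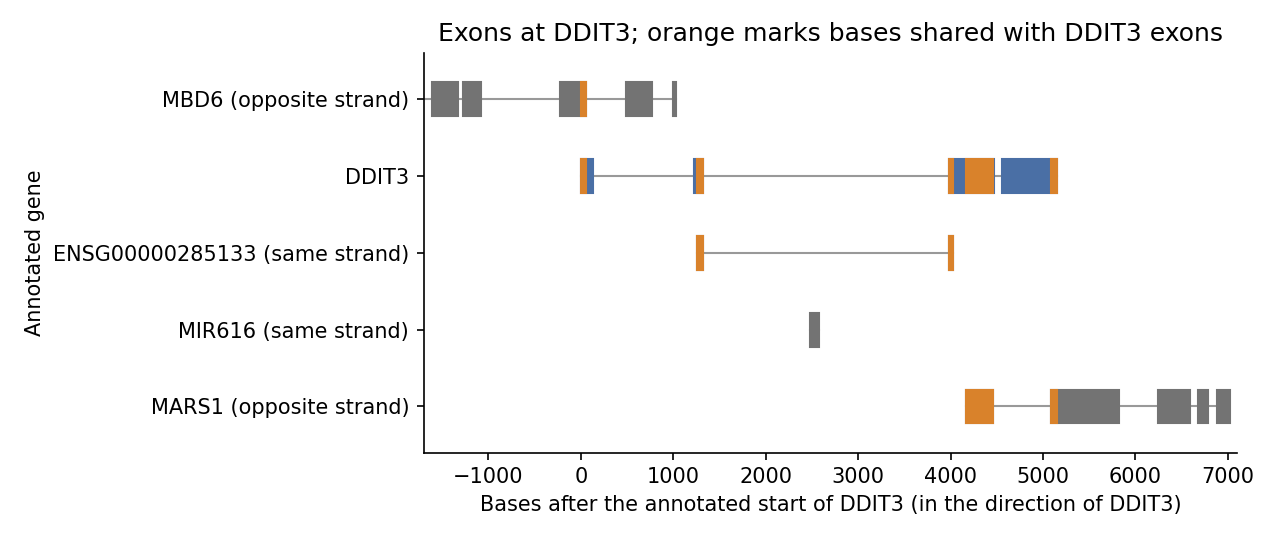
Annotated exons (boxes) of DDIT3 and the genes that overlap it, drawn in bases from the annotated start of DDIT3 in its direction of transcription, with MBD6 and MARS1 running on beyond the plotted range. Orange boxes are the 518 of 1307 DDIT3 exon bases shared with another gene, most of them with MARS1 (355 bases) near the 3′ end.

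DDIT3 had the largest difference of the 10 transcripts. Its counts were 930, 824 and 836 with DMSO, as against 38, 34 and 34 with AZD4573. The groups lay far apart, with each AZD4573 library below each DMSO library. The mean level was 11.5 ± 0.323 CPM in DMSO and 0.633 ± 0.100 CPM in AZD4573 (SD, n = 3 each), which is 5.51% of the DMSO level or 18.1-fold lower. The log2 fold change was -4.19 (standard error 0.127), at place 23 from the lowest of the 17678 genes tested. By level, DDIT3 was close to the middle of the tested genes with DMSO, where 49.4% of them had a lower CPM.

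By TMM, the antisense neighbours that share exon bases with DDIT3 were higher upon AZD4573 treatment, where DDIT3 was lower. MARS1 had 13746, 12490 and 12128 counts with DMSO and 10967, 13177 and 14904 with AZD4573. By CPM every AZD4573 library was above every DMSO library (log2 fold change 0.44, standard error 0.0495, edgeR adjusted p = 2.6e-06), whereas scaled to the mitochondrial mRNAs it was lower (-0.30, adjusted p = 0.00017). MBD6 rose from 45.1 ± 4.16 to 94.4 ± 4.36 CPM (SD, n = 3 each; log2 fold change 1.07, edgeR adjusted p = 5.5e-09) and was higher under both scalings. DCTN2, the nearest gene upstream of DDIT3 that does not overlap it, had a log2 fold change of 0.34 (edgeR adjusted p = 2.9e-05), which turned to -0.40 with the mitochondrial scaling.

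Reads of MARS1 that lie in the shared bases could have been counted for either gene. If the counts of MARS1 were spread evenly over its exons, 613 to 694 of them would fall on the bases shared with DDIT3 in the DMSO libraries and 554 to 753 in the AZD4573 libraries. DDIT3 itself was given 824 to 930 counts with DMSO and only 34 to 38 with AZD4573, fewer than that even share. For MBD6 the even share on bases of DDIT3 would be 33.0 to 37.1 counts with DMSO and 48.7 to 59.1 with AZD4573. The latter is also above the counts of DDIT3 with AZD4573. The counts do not show where along the gene a read fell, and how the shared bases were divided was not tested.

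The 5 genes whose profile over the 6 libraries was nearest to that of DDIT3 were sought among 9121 other named genes at 10 CPM or more with DMSO, by the root mean square difference of centred log2(CPM + 0.5). They were MEPCE (0.0326), HEXIM1 (0.111), CHST10 (0.170), RND3 (0.185) and DOK1 (0.242). MEPCE and HEXIM1 encode components of the 7SK ribonucleoprotein, which holds CDK9 and its cyclin in an inactive state. MEPCE was at 128 CPM with DMSO and 12.1 CPM with AZD4573 (log2 fold change -3.41), but 67.3% of its exon bases are shared with other genes. HEXIM1 was at 117 and 10.4 CPM (log2 fold change -3.49), with 14.3% of exon bases shared. RND3 had the largest of the 5 differences, from 12.9 to 0.523 CPM (log2 fold change -4.64). The added 0.5 CPM compresses the difference of DDIT3 more than that of the more abundant genes, so the order of likeness depends on it. Likeness here mostly reflects the size of the difference between the groups, and shared regulation was not tested.

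ATF4 (ENSG00000128272), which stands upstream of DDIT3 in the pathway, was close to its DMSO level by TMM. This gene is at 39519695 to 39522683 of chromosome 22 and shares no exon base with another gene. Its levels were 227, 246 and 246 CPM with DMSO and 220, 228 and 219 CPM with AZD4573. The highest AZD4573 library lay just above the lowest DMSO library, so the groups overlapped. The log2 fold change was -0.11 (standard error 0.0435), and -0.85 with the mitochondrial scaling, where the median of all genes was -0.71. Set against ATF4 within each library, DDIT3 had 52.1, 45.7 and 46.1 counts per 1000 ATF4 counts with DMSO and 3.39, 2.62 and 2.54 with AZD4573, a ratio that no scaling of the libraries can change. Of the ATF4 pseudogenes, ATF4P3 had 2 to 12 counts and ATF4P4 had 2 to 11 counts in any library. ATF4P1 and ATF4P2 were listed with identical counts, from 0 to 14. These are few beside the 11201 to 18126 counts of ATF4.

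ATF3 (ENSG00000162772), a stress-induced repressor and activator of the same basic leucine zipper (bZIP) class, was low in H9 cells. It is located on chromosome 1 from 212565334 to 212620777 and shares no exon bases. Its counts were 147, 136 and 129 with DMSO and 63, 76 and 49 with AZD4573. Each AZD4573 library was below each DMSO library in CPM, with means of 1.83 ± 0.0664 and 1.12 ± 0.283 (SD, n = 3 each) and a log2 fold change of -0.71 (standard error 0.205). The third AZD4573 library was the lowest, and without it the log2 fold change was -0.51, under the 1.5-fold threshold used for calls below.

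The C/EBP partners of ATF4 and DDIT3 were both lower. CEBPB (ENSG00000172216), on chromosome 20 from 50190830 to 50192668, was at 18.9, 18.6 and 17.1 CPM with DMSO and at 9.60, 10.2 and 9.15 CPM with AZD4573 (log2 fold change -0.92, standard error 0.0747). CEBPG (ENSG00000153879), a C/EBP protein without a transactivation domain of its own, on chromosome 19 from 33373685 to 33382686, was at 128, 122 and 115 CPM and at 81.4, 84.5 and 88.4 CPM (log2 fold change -0.52, standard error 0.0504). Neither gene's groups overlapped. The counts of CEBPB per 100 counts of CEBPG were 14.9, 15.3 and 14.9 with DMSO and 11.8, 12.1 and 10.4 with AZD4573, so CEBPB was lower also relative to CEBPG. CEBPB shares 231 exon bases (12.6%) with the antisense gene CEBPB-AS1. That gene had 38 to 63 counts with DMSO and 79 to 131 with AZD4573 (log2 fold change 1.59, edgeR adjusted p = 2.8e-05). Spread evenly over its exons, 3.31 to 11.4 of its counts would lie on the shared bases in any library, against 489 to 1487 counts of CEBPB.

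PPP1R15A (ENSG00000087074), the stress-induced subunit that directs protein phosphatase 1 to eIF2α, was lower upon AZD4573 treatment. It lies on chromosome 19 from 48872212 to 48876059. Its levels were 47.9, 47.9 and 45.9 CPM with DMSO and 20.6, 22.8 and 22.1 CPM with AZD4573. Both groups were tight and far apart, with a log2 fold change of -1.11 (standard error 0.0563), the second largest of the 10.

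TRIB3 (ENSG00000101255), a pseudokinase that is induced by ATF4 and DDIT3 and in turn restrains them, was the only one of the 10 with a higher level by TMM. This gene lies on chromosome 20 from 362835 to 397559. Its levels were 113, 104 and 97.6 CPM with DMSO and 154, 176 and 185 CPM with AZD4573. Each AZD4573 library lay above each DMSO library. The log2 fold change was 0.71 (standard error 0.0687) and turned to -0.03 when libraries were scaled to the mitochondrial mRNAs. Under either scaling it lay above the median of all genes, which the other 9 did not.

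CHAC1 (ENSG00000128965), a glutathione-degrading enzyme and a target of ATF4 and DDIT3, had the fewest counts of the 10. It lies on chromosome 15 from 40952962 to 40956512, and its counts were 50, 55 and 31 with DMSO and 27, 39 and 11 with AZD4573. The groups overlapped, at 0.603 ± 0.168 and 0.465 ± 0.258 CPM (SD, n = 3 each), and the third library of each group was the lowest. The log2 fold change of -0.39 had a standard error of 0.415 and became 0.01 without the third AZD4573 library, so the difference by TMM was within the spread between libraries. With the mitochondrial scaling it was -1.12. A count of 0 would have allowed up to 0.0382 to 0.0589 CPM, taken as 3 counts in a library and covering counting error only.

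The mTORC1 brakes SESN2 and DDIT4 were both lower, by different amounts. SESN2 (ENSG00000130766), the leucine sensor Sestrin 2, on chromosome 1 from 28259518 to 28282491, was at 5.89, 6.05 and 6.50 CPM with DMSO and at 3.52, 3.45 and 2.77 CPM with AZD4573 (log2 fold change -0.92, standard error 0.119). DDIT4 (ENSG00000168209), also called REDD1, which acts through the TSC complex, on chromosome 10 from 72273919 to 72276036, was at 287, 279 and 277 CPM and at 207, 240 and 232 CPM (log2 fold change -0.31, standard error 0.0521). In both, every AZD4573 library lay below every DMSO library.

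**Figure D2:**
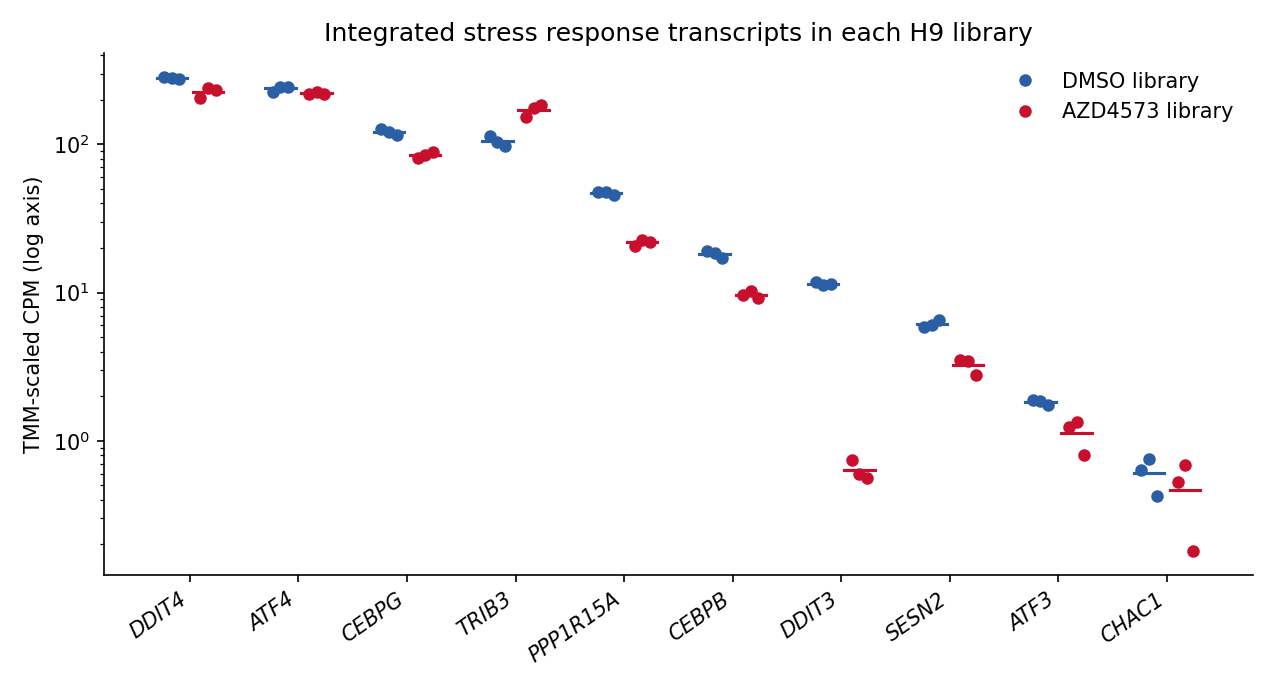
TMM-scaled CPM (log axis) of the 10 transcripts in each of 3 DMSO and 3 AZD4573 libraries, with bars at the group means, ordered by the DMSO mean. DDIT3 is at 11.5 and 0.633 CPM on average in the DMSO and AZD4573 libraries, while ATF4 lies between 219 and 246 CPM in all 6.

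A gene was called where its fold change reached 1.5 and its adjusted p was under 0.05. In this way 5 of the 10 transcripts were lower (DDIT3, PPP1R15A, SESN2, CEBPB and ATF3), 1 was higher (TRIB3) and 4 were neither. With the mitochondrial scaling 9 of the 10 were lower (all but TRIB3) and none higher, among 9433 lower and 1769 higher genes in all. Among all tested genes, 23.7% were called lower and 22.7% higher. Libraries of the groups did not overlap for 8 of the 10 transcripts, 7 lower and 1 higher, where 38.7% of all genes lay wholly below and 39.0% wholly above. Since the 10 were selected on this contrast, nothing is read from these shares. Just inside the fold threshold lay ATF3 (-0.71) and TRIB3 (0.71), and just outside it CEBPG (-0.52). The median log2 fold change of the 10 was -0.61, and that of all tested genes was 0.03. Replicates of the 10 transcripts spread as those of other genes did, with a median within-group SD of 0.0872 on the log2(CPM + 0.5) scale, against 0.0969 over all tested genes.

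**Figure D3:**
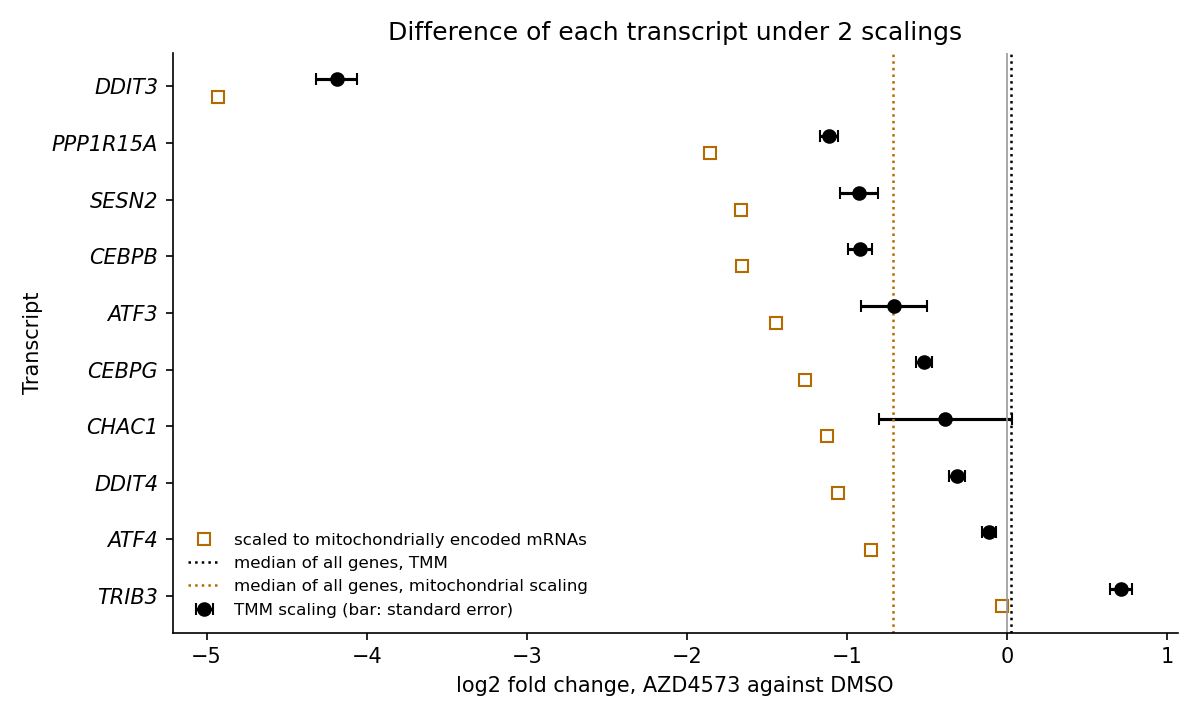
Log2 fold change of each transcript (AZD4573 against DMSO) with TMM scaling (black, bars are standard errors) and scaled to the mitochondrially encoded mRNAs (open squares), with dotted lines at the median of all genes under each. DDIT3 is at -4.19 and -4.93, and TRIB3 is at 0.71 and -0.03, so its rise depends on the scaling.

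Per kilobase of exon, the order of the transcripts in DMSO was led by DDIT4 (133 ± 2.33 CPM per kilobase, SD, n = 3) and ATF4 (91.8 ± 4.09), followed by TRIB3 (31.9 ± 2.39) and CEBPG (29.95 ± 1.52), whose libraries overlapped. At the next places were PPP1R15A (13.8), CEBPB (9.92) and DDIT3 (8.78), and SESN2 (1.77), ATF3 (0.457) and CHAC1 (0.294) were lowest, with no overlap between neighbours. The order of CEBPB and DDIT3 depends on the length used. Per kilobase of the longest transcript, DDIT3 (10.8) stood above CEBPB (9.92) in DMSO, again without overlap. With AZD4573, DDIT3 and SESN2 changed places. DDIT3 stood below SESN2, at 0.484 ± 0.0765 against 0.938 ± 0.120 CPM per kilobase (SD, n = 3 each). TRIB3 was then apart from CEBPG (52.2 against 20.9 CPM per kilobase), and ATF3 and CHAC1 overlapped (0.281 and 0.227). The summed level of the 10 transcripts, not scaled for length, was 819 to 842 CPM with DMSO and 698 to 768 CPM with AZD4573.

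Promoter sequences were examined for 4 short motifs on both strands, in the 250 bases before each annotated start (RefSeq, GRCh38.p14), where all 10 genes had an entry. The C/EBP-ATF composite motif, at which ATF4 or DDIT3 binds with a C/EBP partner, was searched as TGATGNAA and found in 3 of the 10 genes (ATF3, CHAC1 and CEBPG) and in 3.89% of 27305 genes. The cyclic AMP response element TGACGTCA was found in PPP1R15A alone of the 10 and in 2.03% of all genes. The AP-1 motif TGANTCA was found in DDIT3 alone of the 10 and in 8.06% of all genes. The CCAAT box was found in 7 of the 10 genes and in 37.0% of all genes. The 10 genes had 17 windows and all genes had 35116, and a gene with several windows has more chances of a match. By window, 3.14% of the 35116 held the composite motif. No match of 1 motif overlapped that of another in these genes. A match is a description of letters and not a binding site, and no match says only that these letters are not in this window.

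The DDIT3 stretch before its common start is shown because DDIT3 carries the largest difference, with CCAAT boxes in capitals, on the minus strand of chr12:57520518-57520709, between that start and the first exon of MBD6.
DDIT3: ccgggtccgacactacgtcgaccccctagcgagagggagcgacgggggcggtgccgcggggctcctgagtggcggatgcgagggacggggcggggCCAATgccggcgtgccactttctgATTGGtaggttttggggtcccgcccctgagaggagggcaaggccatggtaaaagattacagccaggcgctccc
The AP-1 match of DDIT3 lies further upstream, on the minus strand of chr12:57520737-57520766, with the match in capitals.
DDIT3 AP-1: gcgcgcgcgcaTGACTCAcccacctcctcc
CEBPG is shown for the composite motif (capitals), on the plus strand of chr19:33373896-33374112. The motif begins 42 bases before 1 of the annotated starts of CEBPG, which lies downstream of the first base of the gene in GENCODE (33373685).
CEBPG: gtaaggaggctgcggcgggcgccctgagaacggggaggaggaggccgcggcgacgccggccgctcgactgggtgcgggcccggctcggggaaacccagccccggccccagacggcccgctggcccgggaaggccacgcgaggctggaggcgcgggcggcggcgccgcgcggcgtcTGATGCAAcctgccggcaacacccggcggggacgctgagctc
The other matches are shown with their flanks, all printed from the plus strand. The composite motif of ATF3 is at chr1:212565205-212565234, 191 bases before 1 of its annotated starts. The window of another ATF3 start had no match to it. In CHAC1 the composite motif is on the reverse strand (chr15:40953251-40953280), 209 bases before the start and within an exon of a longer transcript. The cyclic AMP response element of PPP1R15A is at chr19:48872352-48872381, 58 bases before the start, in an annotated exon.
ATF3: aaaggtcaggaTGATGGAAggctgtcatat
CHAC1: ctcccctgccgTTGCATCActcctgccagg
PPP1R15A: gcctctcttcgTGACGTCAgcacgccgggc
The 3 genes with the composite motif had log2 fold changes of -0.71 (ATF3), -0.39 (CHAC1, groups overlapping) and -0.52 (CEBPG), whereas DDIT3 and PPP1R15A, with the largest differences, had no match to it in this window.

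The rest of the pathway was described through 9 lists of 102 other genes, written from general knowledge with results of these data known, of which 95 genes were tested. By the same rule, 22 of them were lower and 19 higher (23.7% and 22.7% of all tested genes), and the median log2 fold change was 0.04, beside 0.03 for all genes. Scaled to the mitochondrial mRNAs, 53 were lower and 2 higher, where 9433 and 1769 of all 17678 tested genes were. The counts of each list with that scaling, given below, are to be read beside these. The p-values below are adjusted over all genes and come from edgeR's quasi-likelihood test. Genes named below were picked with these results known, in part as the largest falls and rises of a list. Their p-values describe single genes and are no evidence about the lists or the pathway.

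**Figure D4:**
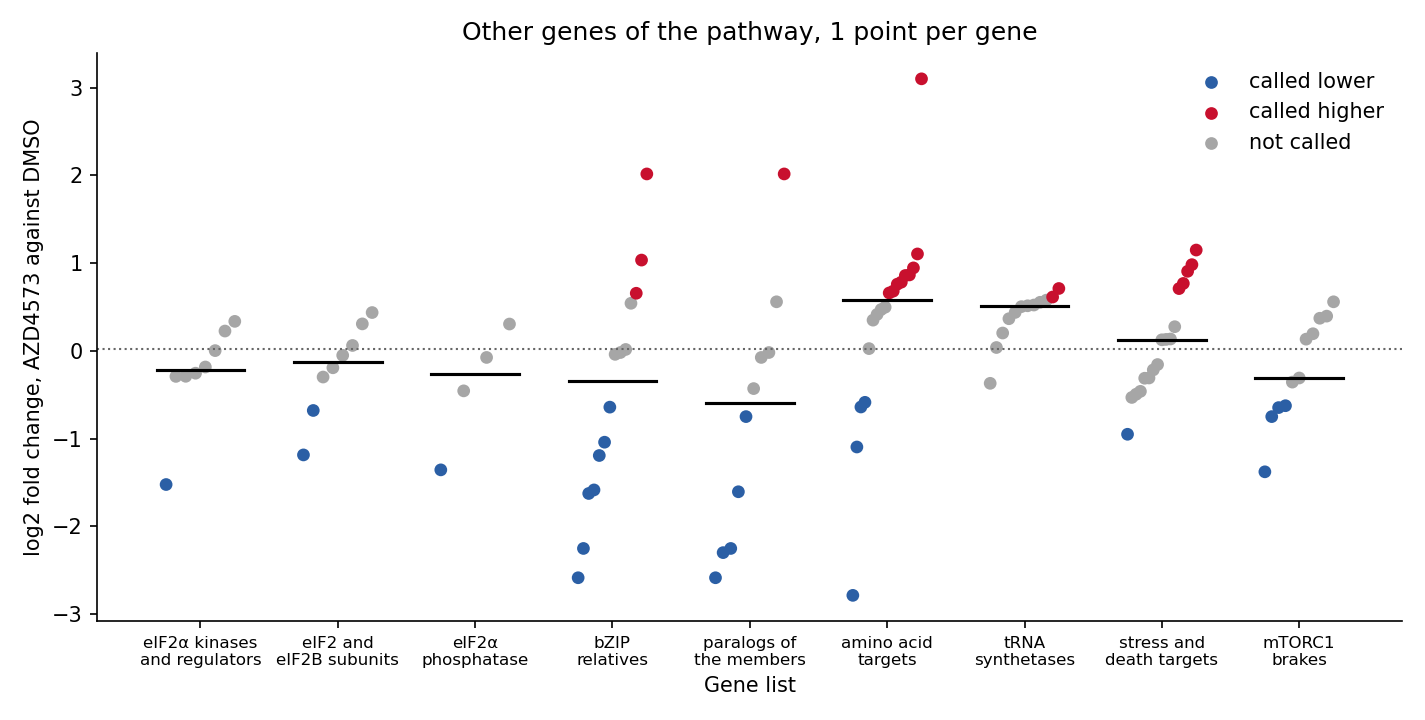
Log2 fold change with TMM scaling (AZD4573 against DMSO) of the tested genes in 9 lists, 1 point per gene, coloured by the call, with a bar at each list's median and a dotted line at the median of all genes (0.03). Some genes stand in more than 1 list. The medians run from -0.59 for the paralogs of the 10 transcripts to 0.58 for the amino acid targets, whose median turns to -0.16 with the mitochondrial scaling.

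Of the 8 tested genes for eIF2α kinases and their regulators, 1 was lower and none higher (median -0.22), and with the mitochondrial scaling 6 were lower and none higher (median -0.96). EIF2AK3, the kinase that senses stress in the endoplasmic reticulum, fell from 37.4 ± 1.78 to 12.97 ± 0.410 CPM (SD, n = 3 each; log2 fold change -1.52, edgeR adjusted p = 1.7e-10). By TMM the other 3 kinases stayed within 1.5-fold of DMSO. EIF2AK2, activated by double-stranded RNA, was at 114 and 95.9 CPM (-0.26, edgeR adjusted p = 0.00013, and -0.99 with the mitochondrial scaling). EIF2AK1, activated by low heme, was at 158 and 185 CPM (0.22), and EIF2AK4, activated by uncharged tRNA, was at 27.9 and 35.2 CPM (0.34). With the mitochondrial scaling these last log2 fold changes turned to -0.51 and -0.41.

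Among the 8 subunits of eIF2 and of its exchange factor eIF2B, 2 were lower and none higher (median -0.12), and with the mitochondrial scaling 6 were lower and none higher (median -0.86). EIF2B4, a regulatory subunit of eIF2B, fell from 39.6 to 17.4 CPM (-1.19, edgeR adjusted p = 1.4e-09) and EIF2B5, its catalytic subunit, from 144 to 90.1 CPM (-0.68, edgeR adjusted p = 2.2e-08). Of the 4 other genes of the eIF2α phosphatase, the catalytic subunit gene PPP1CC fell from 268 to 104 CPM (-1.36, edgeR adjusted p = 2.7e-11) and 3 were not called. With the mitochondrial scaling 3 of these 4 were lower. PPP1R15B, the constitutive counterpart of PPP1R15A, was at 109 and 104 CPM, with overlapping groups (-0.08, edgeR adjusted p = 0.16). It was at -0.82 (edgeR adjusted p = 1.6e-09) with the mitochondrial scaling and at -0.18 (edgeR adjusted p = 0.0040) with library size as the only scaling.

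Of the 14 tested bZIP relatives, 7 were lower and 3 higher (median -0.34), and with the mitochondrial scaling 10 were lower and 1 higher. CEBPD fell from 7.84 to 1.304 CPM (-2.59, edgeR adjusted p = 5.9e-10) and CEBPA from 7.65 to 1.597 CPM (-2.25, edgeR adjusted p = 2.2e-09), where 43.9% of CEBPA exon bases are shared with other genes. JDP2, a bZIP repressor, rose from 1.66 to 6.70 CPM (2.02, edgeR adjusted p = 7.3e-09), and NFE2L2 (NRF2), the regulator of antioxidant genes, rose from 68.3 to 140 CPM (1.03, edgeR adjusted p = 4.3e-09). Other genes share 38.4% of NFE2L2 exon bases. ATF5, the closest relative of ATF4, with 22.1% of its exon bases shared, was at 2062 and 2033 CPM (-0.02, edgeR adjusted p = 0.66). It was at -0.76 (edgeR adjusted p = 1.5e-09) with the mitochondrial scaling and at -0.12 (edgeR adjusted p = 0.0068) with library size only. CEBPE had no count in any library.

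The lists hold 12 paralogs of the 10 transcripts, of which 10 were tested, 5 were lower and 1 was higher, or 8 and 1 with the mitochondrial scaling. Beside CEBPD, CEBPA and JDP2, TRIB1 fell from 3.63 to 0.735 CPM (-2.30, edgeR adjusted p = 1.4e-08), the opposite sign to TRIB3 under TMM scaling. TRIB2 was at 55.5 and 41.2 CPM (-0.43, edgeR adjusted p = 2.6e-06), within 1.5-fold by TMM but at -1.17 with the mitochondrial scaling. CHAC2 fell from 11.8 to 3.90 CPM (-1.61, edgeR adjusted p = 3.2e-08). SESN1 fell from 41.0 to 24.4 CPM (-0.75, edgeR adjusted p = 1.2e-07), and SESN3 was at 0.132 and 0.198 CPM (0.56, edgeR adjusted p = 0.32, and -0.18 with the mitochondrial scaling). DDIT4L had no count.

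The targets of amino acid supply moved in both directions. Of 18 tested, 4 were lower and 9 higher (median 0.58), and with the mitochondrial scaling 5 were lower and 1 higher. The 4 lower genes (SLC38A2, SLC1A5, SLC1A4 and SLC7A1) all encode amino acid transporters, as do SLC7A11, SLC7A5 and SLC6A9 among the higher ones, where SLC1A4, SLC7A1, SLC7A5 and SLC6A9 were named after their values were seen. SLC38A2, a neutral amino acid transporter, fell from 107 to 15.5 CPM (-2.79, edgeR adjusted p = 4.9e-13), and SLC1A5, a glutamine transporter, from 156 to 72.8 CPM (-1.10, edgeR adjusted p = 1.6e-10). SLC7A11, the cystine transporter, was at 1.24, 0.942 and 0.814 CPM with DMSO and at 5.83, 9.77 and 10.1 CPM with AZD4573 (3.10, edgeR adjusted p = 2e-08). GPT2, which makes alanine, rose from 10.8 to 23.1 CPM (1.10, edgeR adjusted p = 3.9e-08). ASNS, the asparagine synthetase gene and a standard ATF4 target, was at 134 and 243 CPM (0.86, and 0.12 with the mitochondrial scaling). It was named after its values were seen, so no p-value is given.

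Of 12 tRNA synthetases, 2 were higher and none lower (median 0.51), and with the mitochondrial scaling 2 were lower and none higher. AARS1 was at 144 and 236 CPM (0.71, edgeR adjusted p = 1e-08) and NARS1 at 196 and 300.1 CPM (0.61, edgeR adjusted p = 1.4e-08), which turned to -0.030 and -0.13 with the mitochondrial scaling. By adjusted p alone 10 were higher by TMM and 1 was lower, where 6596 of all 17678 tested genes were higher and 6606 lower. With the mitochondrial scaling all 12 log2 fold changes were below 0. Of the 12, 11 lay above the median of all genes under either scaling, but rescaling moves all genes and their median together. As the list was written with these results known, nothing is read from this count.

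Of 17 tested targets in stress and cell death, 5 were higher and 1 lower (median 0.12), and with the mitochondrial scaling 11 were lower and none higher. By adjusted p alone 8 were lower and 6 higher by TMM, where 6606 and 6596 of all 17678 tested genes were. The 1 lower gene, HMOX1, named after its values were seen, was at only 0.379 CPM with DMSO and 0.194 CPM with AZD4573. TXNIP, an inhibitor of thioredoxin, rose from 113 to 251 CPM (1.15, edgeR adjusted p = 7.5e-11), and VLDLR, a lipoprotein receptor, from 5.30 to 10.4 CPM (0.98, edgeR adjusted p = 1e-06). Of the 11 other mTORC1 brakes tested, 4 were lower and none higher (median -0.31), and with the mitochondrial scaling 7 were lower and none higher (median -1.05). DEPDC5, a subunit of the GATOR1 complex on which the Sestrins converge, fell from 22.3 to 8.58 CPM (-1.38, edgeR adjusted p = 2e-09).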

How the data were processed

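Bulk RNA-seq of H9 cells gave 6 libraries, 3 with DMSO and 3 with AZD4573, grouped by their labels. Per the submitters' processing notes and the methods, the authors trimmed reads with Cutadapt 2.3, aligned them to GRCh38 with STAR 2.7.8a and deposited expected counts per gene estimated with RSEM 1.3.3, not normalized and given as whole numbers. Libraries were poly(A) selected by the labels and depleted of rRNA by the supplemental methods. The 5 reporter sequences with 0 counts were left out. No pair of libraries of a group agreed within sampling noise, with a chi-square of 5.59 to 21.2 per degree of freedom over genes.

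Counts were analysed in R 4.3.3 with edgeR 4.0.16 (filter with a minimum count of 10, TMM, quasi-likelihood test, Benjamini-Hochberg adjustment over 17678 genes). Calls needed a fold of 1.5 or more and an adjusted p under 0.05. Errors of CPM are SD over libraries. Exons came from GENCODE release 44 and promoters from RefSeq. The procedure was tested on simulated data.

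The 10 transcripts and the gene lists were chosen with earlier results of these data known. Named besides them were genes that share exon bases with them, the neighbours of DDIT3 and pseudogenes, the 4 eIF2α kinases, paralogs, the 5 profiles nearest to DDIT3, and from each list up to 2 falls and 2 rises among called genes at 1 CPM or more whose groups did not overlap. Tried in turn were DESeq2 1.42.0, a minimum fold of 2, RLE factors, library totals alone or the 13 mitochondrial mRNAs for scaling, no filter or a minimum of 10 counts per library, a block for the replicate number and leaving out 1 library, and for the order of levels the longest transcript or CPM by library total.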

Additional observations from a re-analysis of the deposited data

How the results depend on the processing

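The scaling moved the results most. With the mitochondrial scaling, 9433 genes were lower and 1769 higher in place of 4191 and 4012, which took the share of higher genes among the calls from 48.9% to 15.8%. Of the other pathway genes 53 were lower and 2 higher in place of 22 and 19. A fold change of at least 2 left 2450 lower and 2643 higher genes, 14 and 5 of them in the pathway. With each library left out in turn, 4142 to 4337 genes were lower and 3872 to 4119 higher, with 19 to 22 and 18 to 20 pathway genes. The other alternatives kept these counts within 1.5 times.

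Under the mitochondrial scaling the sign turned for TRIB3 (-0.031), AARS1 (-0.030), NARS1 (-0.13), EIF2AK1 (-0.51), EIF2AK4 (-0.41), SESN3 (-0.18), MARS1 (-0.30) and DCTN2 (-0.40), and ATF5 turned to 0.017 with at least 10 counts in every library. With the mitochondrial scaling AARS1 and SESN3 did not pass an adjusted p of 0.05 (edgeR adjusted p = 0.63 and 0.76), and TRIB3 was close to its DMSO level. DDIT3 stayed between -4.32 and -4.10 under the 12 other alternatives. CHAC1 ran from -0.79 to 0.01 under these, the latter without the third AZD4573 library, and was at -1.12 with the mitochondrial scaling. That scaling put 9 of the 10 transcripts past the rule as lower, in place of 5. PPP1R15B and ATF5 passed an adjusted p of 0.05 (edgeR) with the mitochondrial scaling and with library size only, and ATF4P3 with the former. The order of levels kept at least 8 of 10 places with the longest transcript, where DDIT3 and CEBPB changed places in DMSO. It kept 10 with CPM by library total.

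Libraries with the same replicate number did not deviate together (correlations -0.0072, 0.071 and -0.020), so the numbers were not taken as pairs. A replicate block gave 4162 lower and 3926 higher genes, 21 and 19 of them in the pathway.

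CHAC1 had 11 to 55 counts and a biological coefficient of variation of 32.2%, against a median of 7.06% over all tested genes. DDIT3 rested on 34 to 38 counts with AZD4573. The exon overlap of DDIT3 with MARS1 and MBD6 cannot be resolved from gene counts. Counts from 1 line at 1 time do not show protein levels or eIF2α phosphorylation.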
